A study of Mus musculus with 12 samples.

Results

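The effect of the Hif1a genotype on the left ventricle (LV) was measured over both pregnancies by comparing all 6 Hif1a+/- samples of the series with all 6 wild type (Wt) samples, so that every one of the 12 samples entered the comparison. Each sample was the LV of a mouse offspring aged 12 weeks on the FVB background. The 4 groups of 3 samples were Wt from non-diabetic pregnancy, Wt from diabetic pregnancy, Hif1a+/- from non-diabetic pregnancy and Hif1a+/- from diabetic pregnancy. The mothers were Wt females, made diabetic with streptozotocin before mating in the diabetic groups, and the fathers were Hif1a+/- males, so that the null allele tm1jhu came from the father in all Hif1a+/- offspring. The allele is present in every cell of the animal from conception, and it is not limited to the heart. The pregnancy entered the fit as an additive covariate, so that a genotype difference is an average of the differences within each pregnancy. The parts of this average can be unlike, also in sign. The question was which genes differ with the loss of 1 Hif1a allele on average over both pregnancies, and whether any lie near Hif1a on chromosome 12.

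HIF-1 is a transcription factor made of the oxygen-regulated subunit HIF-1α, which the Hif1a gene encodes, and the constant subunit ARNT. In normal oxygen the prolyl hydroxylases mark HIF-1α, the VHL complex binds the marked protein and it is degraded, while in low oxygen HIF-1α accumulates and binds HIF response elements near genes of glycolysis, vessel growth and matrix remodelling. In the heart it is known for its part in chamber and vessel development and in the response to ischaemia.

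Expression was measured by 3′-seq, which samples the ends of transcripts, and the values are whole read counts per gene, shown here as CPM (counts scaled to library size by TMM). The total count was between 18010492 and 39812939 in Hif1a+/- and between 16132442 and 29195547 in Wt. Cardiomyocyte markers summed to between 105000 and 117000 CPM in Hif1a+/- and between 108000 and 121000 CPM in Wt, and none of the 11 markers was at 0 throughout. The labels give all animals as female, whereas the study's text says that males were used. In 11 samples the 4 Y-linked genes summed to between 195 and 250.1 CPM and Xist was at most 5.99 CPM, whereas Hif1a+/- animal 72 from diabetic pregnancy had 1.14 CPM of the Y-linked genes and 158 CPM of Xist. Values without animal 72 are therefore given beside the calls, the genes DESeq2 called and the window around Hif1a. They are also given for some of the target genes, other single genes and lists.

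Very few genes separated the genotypes. Of 14927 genes tested, edgeR's quasi-likelihood test called 0.0% (0 genes) at an adjusted p under 0.1, with a smallest adjusted p of 0.351, and 2.74% (409 genes, 215 or 1.44% higher and 194 or 1.3% lower in Hif1a+/-) had an unadjusted p under 0.05. DESeq2 called 0.0402% (6 genes): Hif1a and Plekhh1 (0.0134%) were higher in Hif1a+/-, and Nrn1, Ptchd3, Fmr1nb and 2310015A10Rik (0.0268%) were lower. Limma-voom with sample weights called 3 genes (0.0201%), Hif1a higher (0.0067%) and Fmr1nb and 2310015A10Rik lower (0.0134%), and these 3 were among the 6 of DESeq2. The 2.74% of genes was below the fraction of 0.05 that tests without any difference would give on average. The calls depended on the test, and the genes below are given with their values in each sample. EdgeR without the filter on low counts called 30 genes, these 6 among them, and other list members it called are named where they are described. Without animal 72, DESeq2 called 7 genes and edgeR 0. The median log2 fold change of all genes tested was -0.0044, the median size of a difference was 0.068 and 36 genes differed by over 1 on the log2 scale.

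Hif1a was the gene that defines the genotypes, and its count was higher, not lower, in Hif1a+/-. In non-diabetic pregnancy the level of Hif1a was 55.7, 57.0 and 71.8 CPM in Wt animals 25, 42 and 89, and 89.3, 78.8 and 89.0 CPM in Hif1a+/- animals 14, 32 and 44. In diabetic pregnancy it was 48.0, 59.2 and 58.6 CPM in Wt animals 50, 7 and 80, and 70.5, 64.8 and 81.5 CPM in Hif1a+/- animals 66, 72 and 77. Within each pregnancy every Hif1a+/- sample stood above every Wt sample, and over both pregnancies the genotypes overlapped only through Wt animal 89, which stood above Hif1a+/- animals 66 and 72. The means were 79.0 ± 9.87 CPM (SD, n = 6) in Hif1a+/- and 58.4 ± 7.72 CPM (SD, n = 6) in Wt, a log2 fold change of 0.43 with a standard error of 0.084 (1.35-fold). The adjusted p was 0.432 with edgeR, 0.0103 with DESeq2 and 0.0959 with limma-voom. An exact permutation test of the genotype within each pregnancy, two-sided, gave p = 0.005 for the mean difference of 0.43 in log2(CPM + 1), the smallest p that the 400 rearrangements allow. The p-value measures the spread between these animals, 3 per group. It takes them as independent, although their litters were not known. The log2 fold change was 0.48 in non-diabetic and 0.39 in diabetic pregnancy, and it was 0.47 without animal 72. DESeq2 called Hif1a in 10 of 12 fits that each left out 1 sample.

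This count does not check the genotype. Only the 3′ end of the transcript is read, and the part of the gene that the null allele lacks was not given in the sources used here, so that a transcript without function could still be counted. The Hif1a gene lies at chr12:73901375-73947530 on the plus strand of GRCm38, and the antisense gene Gm15283 spans the whole of it on the other strand, with 22 to 73 counts per sample. This overlap is of the whole genes and was not measured between exons. The strand setting of the counting was not stated, so that it is not known how reads shared by the pair were assigned. Gm15283 was at 1.81 ± 0.183 CPM (SD, n = 6) in Hif1a+/- and 1.39 ± 0.232 CPM (SD, n = 6) in Wt, a log2 fold change of 0.39 with an unadjusted p of 0.0243, which did not pass after adjustment.

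**Figure D1:**
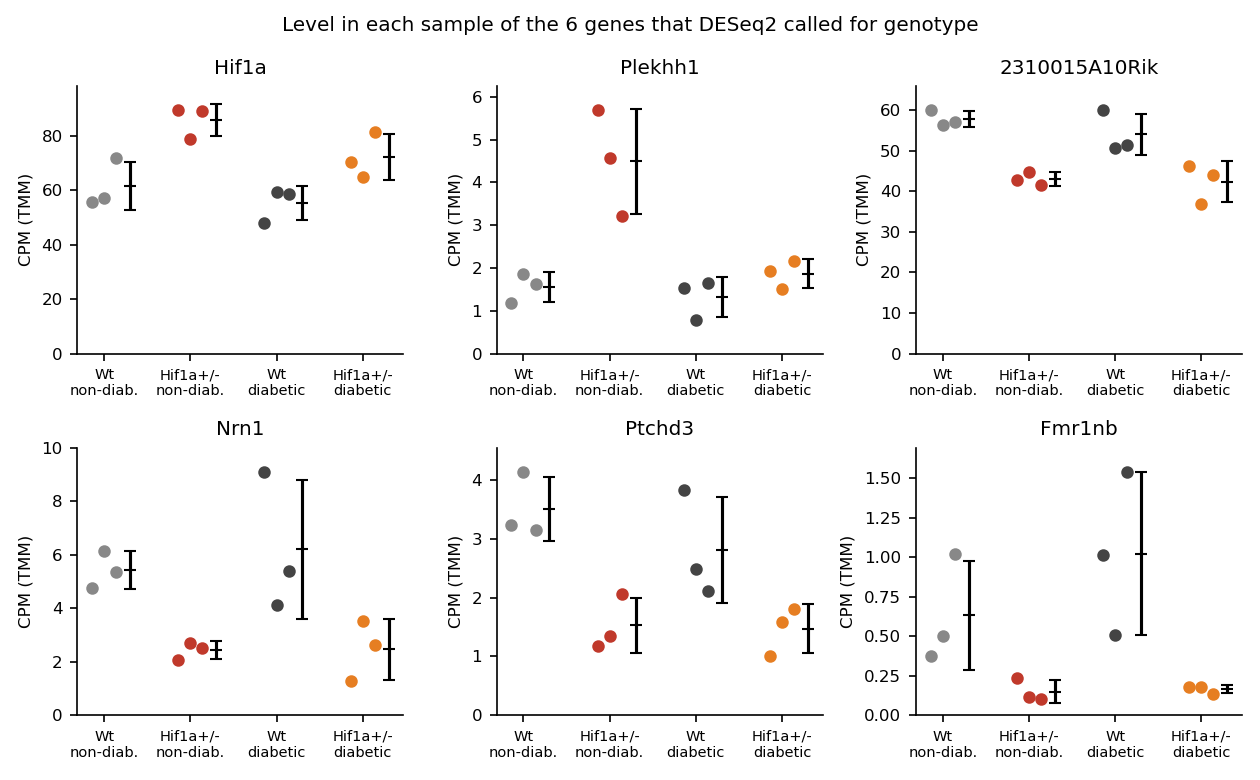
Level of 6 genes in each of the 12 samples, in CPM on a linear axis from 0, with 3 points per group for the animals and the mean and SD beside them. Hif1a and Plekhh1 stood higher in Hif1a+/-, the latter mainly in non-diabetic pregnancy where it reached 5.68 CPM, and the other 4 genes had no Hif1a+/- sample at or above a Wt sample.

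The 4 genes that DESeq2 called lower had groups that did not overlap, and each was lower in both pregnancies. Fmr1nb, an X-linked gene known in human as a cancer/testis antigen, was the most reduced in relative terms. Its level was between 0.101 and 0.234 CPM in Hif1a+/- with a median of 0.154, and between 0.374 and 1.54 CPM in Wt with a median of 0.763. This rests on few reads, with 2 to 7 counts per sample in Hif1a+/- and 6 to 27 in Wt. No Hif1a+/- sample reached the filter's minimum of 10 counts, so that the gene entered the test only through the genotype where it is high, and its calls are a description and no support. Fmr1nb had a log2 fold change of -2.32 with a standard error of 0.38, and the adjusted p was 0.00217 with DESeq2, 0.351 with edgeR and 0.0959 with limma-voom. Animal 72 had 0.176 CPM of Fmr1nb, within the range of the other Hif1a+/- samples, and without it the log2 fold change was -2.31.

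Nrn1, which encodes the membrane-anchored growth factor neuritin, was at 2.06, 2.71 and 2.52 CPM in Hif1a+/- and 4.73, 6.14 and 5.35 CPM in Wt after non-diabetic pregnancy. After diabetic pregnancy it was at 1.26, 3.52 and 2.61 CPM in Hif1a+/- and 9.09, 4.12 and 5.37 CPM in Wt. All 6 Hif1a+/- samples were below all 6 Wt samples, with Wt animal 50 the highest. The log2 fold change was -1.27 with a standard error of 0.24, and the adjusted p was 0.00137 with DESeq2, 0.399 with edgeR and 0.155 with limma-voom. Nrn1 shares 920 bases with Fars2 on the other strand.

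Ptchd3, which encodes a protein of the Patched domain family, was between 1.00 and 2.06 CPM in Hif1a+/- with a median of 1.47 and between 2.11 and 4.14 CPM in Wt with a median of 3.19. The 2 ranges came close but did not meet. The log2 fold change of Ptchd3 was -1.09 with a standard error of 0.21 (0.471-fold), and the adjusted p was 0.00217 with DESeq2, 0.399 with edgeR and 0.188 with limma-voom. The values of Nrn1 and Ptchd3 without animal 72 were -1.42 and -1.14 on the log2 scale, and that of 2310015A10Rik was -0.35. DESeq2 called each of Fmr1nb, Nrn1, Ptchd3 and 2310015A10Rik in all 12 fits that left out 1 sample. These fits kept the same filter, which Fmr1nb passed only through Wt, so that its calls in them are no support either.

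The lower transcript 2310015A10Rik and the higher gene Plekhh1 lie on chromosome 12, as does Hif1a. The transcript 2310015A10Rik, a non-coding gene at chr12:80120546-80132844 on the minus strand of GRCm38, was at 42.8, 44.9 and 41.5 CPM in Hif1a+/- and 60.0, 56.4 and 57.2 CPM in Wt after non-diabetic pregnancy. After diabetic pregnancy it was at 46.3, 36.8 and 44.1 CPM in Hif1a+/- and 60.0, 50.8 and 51.4 CPM in Wt. The highest Hif1a+/- sample, animal 66, stayed below the lowest Wt sample, animal 7. With 796 to 1805 counts per sample its log2 fold change of -0.39 had a standard error of 0.068, and the adjusted p was 0.00178 with DESeq2, 0.358 with edgeR and 0.0959 with limma-voom. Plekhh1, which encodes a protein with pleckstrin homology, MyTH4 and FERM domains, lies at chr12:79029163-79081655 on the plus strand and overlaps Pigh on the other strand by 992 bases. It was at 5.68, 4.57 and 3.22 CPM in Hif1a+/- and 1.18, 1.86 and 1.63 CPM in Wt after non-diabetic pregnancy. After diabetic pregnancy it was at 1.92, 1.496 and 2.16 CPM in Hif1a+/- and 1.52, 0.783 and 1.66 CPM in Wt, where the genotypes overlapped. Plekhh1 had a log2 fold change of 1.51 in non-diabetic and 0.53 in diabetic pregnancy, with an unadjusted interaction p of 0.0404 that did not pass after adjustment. Without animal 72 the additive value of Plekhh1 was 1.15 on the log2 scale. Its adjusted p for genotype was 0.0905 with DESeq2, and DESeq2 called it in 4 of 12 fits that left out 1 sample.

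Genes near Hif1a had small p-values more often than genes elsewhere. The share over all genes was itself below the fraction of 0.05 that tests without any difference would give on average. The excess in the window was not tested. Of 109 genes tested within 10 Mb of the start of Hif1a, Hif1a left out, 9 (8.26%) had an unadjusted p under 0.05 in edgeR, 7 higher and 2 lower in Hif1a+/-, beside 2.74% of all genes and 3.12% of the 384 genes further along chromosome 12. One of the 9, Wdr89, passed the filter only through Hif1a+/-, and leaving out such genes it was 8 of 108 (7.41%), beside 2.67% of all genes left. Within 1 Mb it was 2 of 8 genes, within 5 Mb 7 of 67 and within 20 Mb 16 of 199 (8.04%), and beyond 20 Mb it was 5 of 294 (1.7%). The counts within 1, 5, 10 and 20 Mb include the antisense gene Gm15283, whose reads may not be separate from those of Hif1a. EdgeR called 0 genes in any of these windows at the adjusted threshold. DESeq2 called 2 of the 109 within 10 Mb, 2310015A10Rik and Plekhh1, beside 0.0402% (6 genes) of all genes tested. Together with Hif1a, 3 of its 6 genes lay within 10 Mb of the targeted locus, while 3 were among 14433 genes on other chromosomes. Of the 15 genes with no overlap between genotypes, 2310015A10Rik and Fut8 lay in the window, 1.83% of its genes beside 0.1% of all genes. Leaving out 1 sample at a time gave between 7.34% and 15.6% within 10 Mb, beside 1.86% to 5.92% over all genes. The highest, 15.6%, came without Wt animal 89, where the share of all genes was 5.92%, and the next, 13.8%, without Wt animal 80, where it was 4.62%. Without animal 72 the share in the window was 10.1%, beside 2.38% over all genes. The small p-values lay mostly to one side of Hif1a. From Hif1a to 5 Mb beyond it 5 of 24 genes had an unadjusted p under 0.05, from 5 to 10 Mb 2 of 35 and from 10 to 20 Mb 7 of 64. Over the 5 Mb before Hif1a it was 2 of 43, and none of the genes from 5 to 74 Mb before it had one. The median log2 fold change within 10 Mb was 0.0017, beside -0.0044 for all genes.

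The members of the window were genes of different kinds. Besides the antisense gene, the closest with an unadjusted p under 0.05 was Slc38a6, an amino acid transporter gene 0.61 Mb before Hif1a, which was at 3.47 ± 0.572 CPM (SD, n = 6) in Hif1a+/- and 2.73 ± 0.478 CPM (SD, n = 6) in Wt. Rhoj, a small GTPase of endothelial cells at 1.41 Mb, was at 35.4 ± 5.13 CPM (SD, n = 6) and 29.7 ± 2.43 CPM (SD, n = 6) in the same order. Wdr89, a WD repeat gene at 1.73 Mb, had a log2 fold change of 1.11 with a standard error of 0.35, at 0.220 to 0.564 CPM in Hif1a+/- and 0.0923 to 0.343 CPM in Wt, which is 5 to 16 and 2 to 6 counts per sample. Rab15, a small GTPase of endosome recycling at 2.9 Mb, was between 1.01 and 2.07 CPM in Hif1a+/- and between 0.436 and 1.29 CPM in Wt. Its log2 fold change was 0.87 with an unadjusted p of 0.00116, and the whole gene lies over Fntb on the other strand.

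Max and Fut8 were the remaining pair. Max, the dimer partner of the Myc proteins, lies at 3.04 Mb and was lower, at 37.8 ± 1.77 CPM (SD, n = 6) in Hif1a+/- and 44.4 ± 5.71 CPM (SD, n = 6) in Wt. Fut8, the enzyme that adds core fucose to glycoproteins, lies at 3.34 Mb and did not overlap between genotypes. It was between 24.6 and 29.4 CPM in Hif1a+/- with a median of 26.4 and between 22.7 and 23.9 CPM in Wt with a median of 23.2, a log2 fold change of 0.20 with a standard error of 0.061 and an unadjusted p of 0.0057. A targeted allele is passed on together with the stretch of chromosome around it. The dose of Hif1a and alleles linked to it cannot be told apart in this design, because no group carries the flanking region without the null allele.

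**Figure D2:**
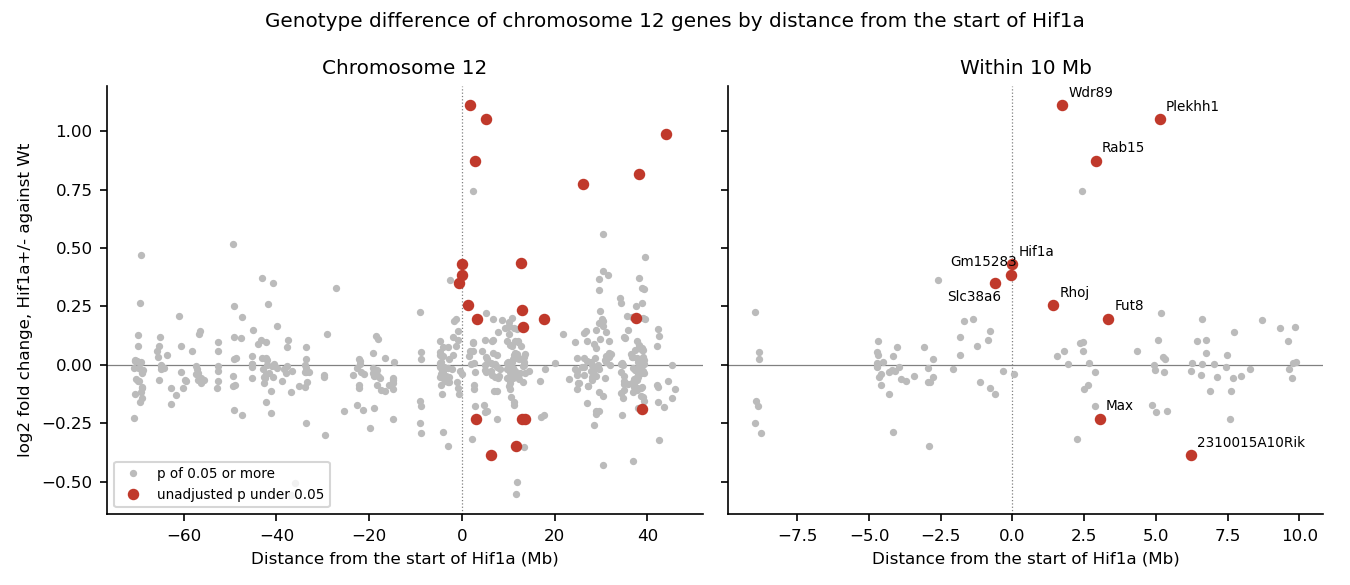
Genotype log2 fold change (Hif1a+/- against Wt, additive fit) of the 494 genes tested on chromosome 12 by the distance of their start from that of Hif1a in Mb, over the whole chromosome (left) and within 10 Mb (right). Red points have an unadjusted p under 0.05, and the 10 labelled on the right, Hif1a among them, lie between -0.61 and 6.22 Mb.

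Over all chromosomes, the 20 genes with the smallest p were mostly of low level, 9 higher and 11 lower in Hif1a+/-. They were chosen for their p in this contrast, so that their differences are a description. Eps8l1, a relative of the actin regulator Eps8, was between 0.442 and 0.805 CPM in Hif1a+/- and between 0.231 and 0.374 CPM in Wt, which is 10 to 20 and 5 to 7 counts per sample. No Wt sample reached 10 counts of Eps8l1, so that it too passed the filter only through the genotype where it is high. Six2, a homeobox transcription factor, was between 0.584 and 1.24 CPM in Hif1a+/- and between 0.125 and 0.613 CPM in Wt, where animal 7 was the only Wt sample to reach the Hif1a+/- range. Igsf23, an immunoglobulin superfamily gene, was between 0.462 and 1.05 CPM in Hif1a+/- and between 1.09 and 2.62 CPM in Wt, without overlap. H3f3aos, a transcript antisense to the histone gene H3f3a with which it shares 168 bases, was between 0.906 and 1.54 CPM in Hif1a+/- and between 0.415 and 0.857 CPM in Wt, also without overlap. Of these genes, none was called by DESeq2, limma-voom or edgeR with the filter, while edgeR without it called Igsf23 (adjusted p = 0.0309) and Six2 (adjusted p = 0.092).

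Among those of the 20 with higher counts, Nr4a1, an immediate early nuclear receptor, was between 6.93 and 20.3 CPM in Hif1a+/- and between 12.0 and 39.4 CPM in Wt. Its log2 fold change was -1.13 with a standard error of 0.27, but the ranges overlapped. EdgeR called Nr4a1 only without the filter (adjusted p = 8.88e-05). Clk1, a kinase of splicing factors, was at 71.2 ± 10.9 CPM (SD, n = 6) in Hif1a+/- and 88.6 ± 7.14 CPM (SD, n = 6) in Wt, with a log2 fold change of -0.32. Tmod4, a capping protein of muscle actin filaments, was at 14.1 ± 3.505 CPM (SD, n = 6) and 20.7 ± 3.32 CPM (SD, n = 6) in the same order, and its log2 fold change was -0.32 in non-diabetic and -0.79 in diabetic pregnancy, the latter -0.64 without animal 72. Loxl2, a lysyl oxidase that crosslinks matrix and a known HIF target, was higher, at 26.9 ± 4.52 CPM (SD, n = 6) in Hif1a+/- and 19.1 ± 3.70 CPM (SD, n = 6) in Wt. EdgeR without the filter called Tmod4 and Loxl2 (adjusted p = 0.0256 for both). The rest of the 20 were Fam205c, 5430416N02Rik and Olfr78, lower with log2 fold changes of -1.09, -0.94 and -0.98, and 9330102E08Rik and 3110070M22Rik, higher with 0.28 and 0.89. Olfr78 belongs to the large olfactory receptor family of similar sequences, so that its count is uncertain.

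The differences were compared between the pregnancies, which share no sample. All 20 genes had the same sign in both, which their choice on the sum of both favours, and 12 of the 20 had every Hif1a+/- sample on the same side of every Wt sample within each pregnancy. Over all 14927 genes, 47.4% had the same sign in both pregnancies, and Spearman's rho of the 2 log2 fold changes across genes was -0.028, a description over genes that are not independent. A total of 15 genes (0.1%) had no overlap between the 6 Hif1a+/- and the 6 Wt samples, 7 higher (0.0469%) and 8 lower (0.0536%), and 13 without Fmr1nb and Eps8l1. The remainder of these, besides those named above, were Rps19-ps3, Gm9755 and Parp1, higher, and Gm15772, Rgs7 and Gimap9, lower. Rps19-ps3, Gm9755 and Gm15772 are processed pseudogenes that share sequence with their parent genes, so that their counts are uncertain. There were 32 genes (0.214%) with the groups of 3 separated in the same direction in both pregnancies and 43 (0.288%) separated in opposite directions. Within non-diabetic pregnancy, edgeR called 0 genes, DESeq2 1 (0.0067%) and limma-voom 0, with 145 genes (0.971%) at an unadjusted p under 0.05. Within diabetic pregnancy, edgeR called 0, DESeq2 24 (0.161%) and limma-voom 1 (0.0067%), with 800 genes (5.36%) at an unadjusted p under 0.05. For the difference between the pregnancies in the genotype effect, edgeR called 0 genes, DESeq2 4 (0.0268%) and limma-voom 0, and 381 genes (2.55%) had an unadjusted p under 0.05.

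**Figure D3:**
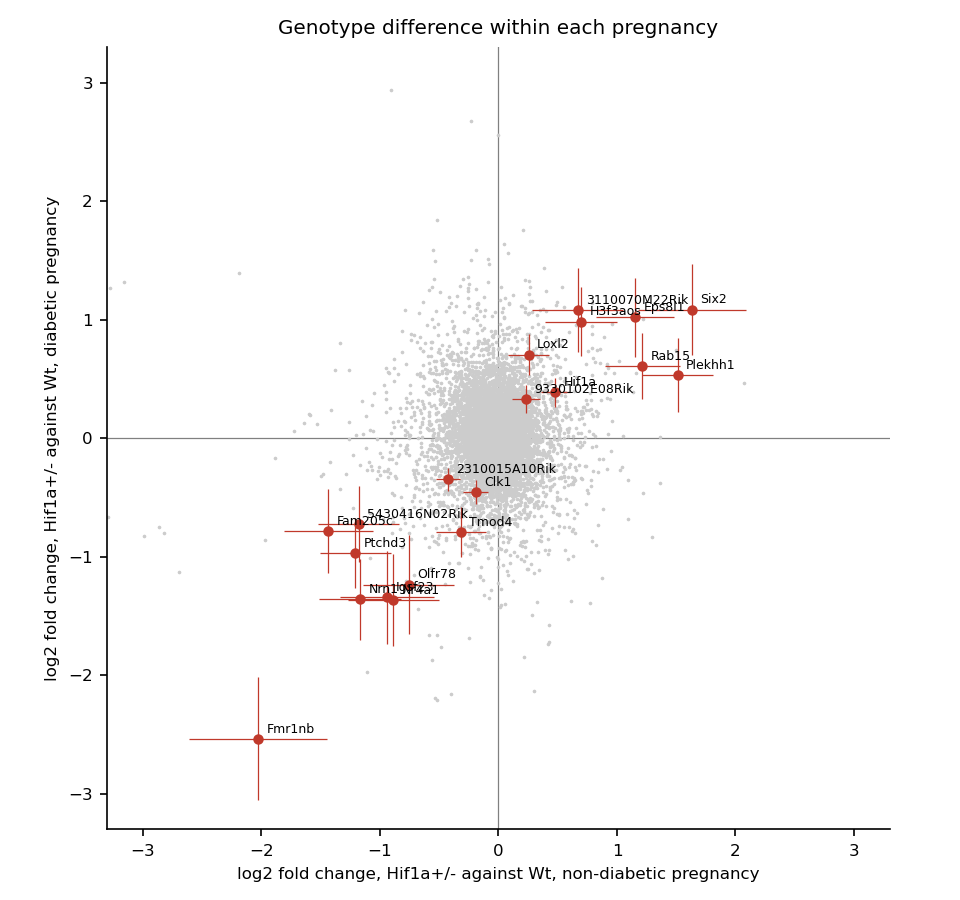
Genotype log2 fold change (Hif1a+/- against Wt) in non-diabetic pregnancy (horizontal) and in diabetic pregnancy (vertical) for the genes tested, with the 20 genes of smallest p in the additive fit in red with standard errors and 4 genes outside the plotted range left out. The red points lie at the lower left and the upper right, whereas the grey points show no common direction (rho -0.028).

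Apart from Hif1a, no gene of the HIF pathway was called. In the list of HIF subunits, hydroxylases and degradation factors all 19 members were tested, edgeR called 0, DESeq2 called only Hif1a, and 6 were above and 13 below 0. The other subunits that respond to oxygen, Epas1 and Hif3a, had log2 fold changes of -0.027 with a standard error of 0.093 and -0.31 with a standard error of 0.36. The constant partner Arnt had -0.013 with a standard error of 0.069. Arnt2, its relative in nerve cells, had 0.87 with a standard error of 0.26 and an unadjusted p of 0.0054, at levels between 0.642 and 1.24 CPM in Hif1a+/- and between 0.311 and 0.736 CPM in Wt. Of the prolyl hydroxylases, Egln1 and Egln2 had log2 fold changes of -0.013 and -0.062. Egln3, itself a HIF target, lies 19.7 Mb before Hif1a on chromosome 12 and had -0.27 with a standard error of 0.21, between 243 and 395 CPM in Hif1a+/- and between 224 and 573 CPM in Wt. The asparagine hydroxylase gene Hif1an had -0.049. Among degradation factors, Vhl had -0.028 and its ubiquitin ligase partner Cul2 -0.02. The coactivator Ep300 had -0.11 and the inhibitor Cited2, which competes with HIF-1α for it, 0.24, with standard errors of 0.11 and 0.26.

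The genes of glucose uptake and glycolysis, well known HIF-1 targets, were nearly all slightly lower in Hif1a+/-, and none was called by edgeR with or without the filter, DESeq2 or limma-voom. Of 23 members 22 were tested (Aldoc had too few counts), 20 were below 0 and 2 above, beside 51.9% of all genes below 0. The median log2 fold change was -0.12, beside -0.0044 for all genes, and it was -0.15 in non-diabetic and -0.1 in diabetic pregnancy, with 13 of the 22 below 0 in both. Gapdh, Pfkp and Ldha had an unadjusted p under 0.05 (13.6% of the list, beside 2.74% of all genes), all lower. The list was chosen with earlier results of these data known, and its members share samples, so that the count is a description.

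The level of Gapdh, a dehydrogenase of lower glycolysis, was 1665, 1800 and 1999 CPM in Hif1a+/- and 2217, 2011 and 2211 CPM in Wt after non-diabetic pregnancy. After diabetic pregnancy it was 2050, 1800 and 1970 CPM in Hif1a+/- and 2663, 1942 and 2217 CPM in Wt. The genotypes separated in non-diabetic pregnancy only, and the log2 fold change of Gapdh was -0.23 with a standard error of 0.079 and an unadjusted p of 0.01. Pfkp, the platelet type of phosphofructokinase, was between 72.5 and 93.7 CPM in Hif1a+/- and between 74.6 and 125 CPM in Wt, with a log2 fold change of -0.30 and a standard error of 0.11. Ldha, which makes lactate from pyruvate, was at 892 ± 68.8 CPM (SD, n = 6) in Hif1a+/- and 1005 ± 119.7 CPM (SD, n = 6) in Wt. Its log2 fold change was -0.17 with a standard error of 0.081, and an exact permutation test within pregnancies gave p = 0.09. Without animal 72 the log2 fold changes of Gapdh, Pfkp and Ldha were -0.21, -0.35 and -0.16. The next members were Pgam1 and Slc16a3, a mutase and the lactate exporter, with log2 fold changes of -0.25 and -0.24, and Pfkl and Aldoa with -0.16 and -0.15. The glucose transporter Slc2a1 had -0.12 with a standard error of 0.12, and Hk1 and Pfkfb4 were the pair above 0.

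The promoters of Hif1a, of the 3 glycolysis genes with an unadjusted p under 0.05 and of Ddit4, the lower gene of smallest p among the remaining targets, are shown because the glycolysis genes are known for HIF response elements there. Loxl2, the target with the smallest p, was higher and is not shown. Each window covers 250 bases before to 50 bases after the start of transcription, from RefSeq on GRCm38.p6, written 5′ to 3′ along the gene's strand. Capitals mark the core letters ACGTG or GCGTG on either strand. The letters CACGTG hold ACGTG on both strands and count as 2 matches.
Hif1a: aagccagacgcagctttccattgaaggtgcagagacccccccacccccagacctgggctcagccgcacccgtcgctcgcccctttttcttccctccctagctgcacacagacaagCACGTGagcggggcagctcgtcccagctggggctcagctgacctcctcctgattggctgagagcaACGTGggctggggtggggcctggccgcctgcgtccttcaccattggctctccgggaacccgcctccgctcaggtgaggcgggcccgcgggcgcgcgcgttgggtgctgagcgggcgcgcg
Ldha: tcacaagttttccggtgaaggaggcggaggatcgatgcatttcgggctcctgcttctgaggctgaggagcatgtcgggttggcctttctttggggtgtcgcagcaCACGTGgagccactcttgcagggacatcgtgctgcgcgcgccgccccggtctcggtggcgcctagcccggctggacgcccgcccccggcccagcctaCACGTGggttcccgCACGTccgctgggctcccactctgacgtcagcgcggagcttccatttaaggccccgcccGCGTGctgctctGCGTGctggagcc
Gapdh: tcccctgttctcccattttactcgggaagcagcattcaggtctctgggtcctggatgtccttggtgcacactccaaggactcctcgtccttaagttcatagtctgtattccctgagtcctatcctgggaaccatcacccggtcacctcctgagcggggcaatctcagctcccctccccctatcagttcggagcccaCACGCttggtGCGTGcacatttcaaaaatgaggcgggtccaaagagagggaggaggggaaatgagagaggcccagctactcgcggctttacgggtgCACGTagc
Pfkp: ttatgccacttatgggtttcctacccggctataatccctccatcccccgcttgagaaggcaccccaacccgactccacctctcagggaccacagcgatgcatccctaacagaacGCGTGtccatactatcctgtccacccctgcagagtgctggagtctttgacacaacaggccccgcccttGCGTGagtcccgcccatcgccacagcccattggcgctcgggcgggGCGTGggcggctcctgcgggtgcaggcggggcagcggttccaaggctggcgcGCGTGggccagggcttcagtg
Ddit4: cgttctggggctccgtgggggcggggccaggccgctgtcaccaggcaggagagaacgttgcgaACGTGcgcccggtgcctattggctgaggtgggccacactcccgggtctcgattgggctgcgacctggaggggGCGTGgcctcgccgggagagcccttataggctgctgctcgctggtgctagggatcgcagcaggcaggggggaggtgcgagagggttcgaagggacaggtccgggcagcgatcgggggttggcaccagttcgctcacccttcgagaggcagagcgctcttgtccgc

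The windows lie at chr12:73907617-73907916 on the plus strand for Hif1a, chr7:46845554-46845853 on the plus strand for Ldha, and chr6:125165724-125166023 on the minus strand for Gapdh. Those of Pfkp and Ddit4 lie at chr13:6648722-6649021 and chr10:59951721-59952020, both on the minus strand. Ldha has a second window in the table, which is not shown. The letters matched 7 times in the window of Ldha, 4 times in Pfkp, 3 times in Gapdh and Hif1a, and 2 times in Ddit4. They are common: 43.8% of the 32851 windows of the table and 60.1% of the 14040 windows of genes tested held at least 1 match. For the glycolysis list it was 22 of 30 windows (73.3%, 21 of 22 genes found in the table). For the nuclear-encoded respiratory chain, which was not chosen as a list of HIF targets but was not cleared of them, it was 16 of 20 windows (80.0%, 19 of 30 genes). Of the 6 genes that DESeq2 called, 5 were in the table, Nrn1 not, and 4 of 5 windows held a match, Fmr1nb being the exception. A match is a stretch of letters and not a measured site.

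The remaining HIF-1 targets moved in both directions. Of 48 members 46 were tested, none was called by DESeq2, limma-voom or edgeR with the filter, 31 were below and 15 above 0, and the median log2 fold change was -0.056. Ddit4, an inhibitor of mTOR signalling, was between 19.3 and 35.4 CPM in Hif1a+/- and between 24.1 and 47.4 CPM in Wt, a log2 fold change of -0.55 with a standard error of 0.16 and an unadjusted p of 0.0049. EdgeR without the filter called Ddit4 (adjusted p = 0.0222), and without animal 72 its log2 fold change was -0.48. Ankrd37, an ankyrin repeat gene, had -0.39 in both pregnancies and in the additive fit. Kdm3a, a histone demethylase, had -0.24, and it was -0.08 in non-diabetic and -0.41 in diabetic pregnancy. Loxl2, described above, went the other way. Vegfa, the main vessel growth factor among HIF targets, was between 218 and 565 CPM in Hif1a+/- and between 211 and 592 CPM in Wt, and an exact permutation test within pregnancies gave p = 0.315 for a mean difference of -0.286 on the log2 scale. In the list of VEGF and angiopoietin signalling all 18 members were tested and 0 had an unadjusted p under 0.05. Angpt2, the angiopoietin that antagonizes the Tie2 receptor, had -0.45 with a standard error of 0.21, and Aplnr, the apelin receptor, 0.35 with a standard error of 0.19.

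**Figure D4:**
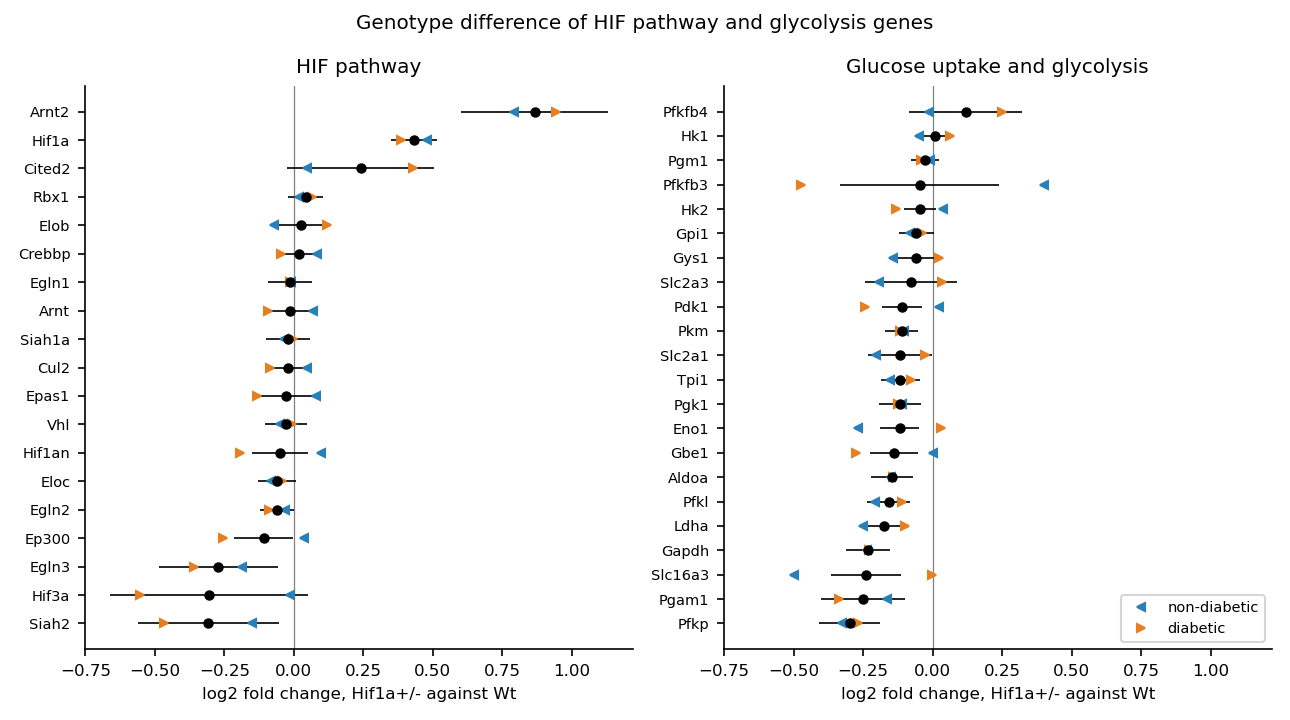
Genotype log2 fold change (Hif1a+/- against Wt) of the 19 genes of the HIF pathway (left) and the 22 genes of glucose uptake and glycolysis tested (right), with black points and bars for the additive fit and its standard error and triangles for each pregnancy. Hif1a and Arnt2 stand above the other pathway genes, and 20 of 22 glycolysis genes lie left of 0, none beyond -0.298.

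Genes of mitochondrial energy supply differed by very little. All 30 nuclear-encoded respiratory chain genes tested had a log2 fold change below 0, between -0.157 and -0.0265, with a median of -0.059, and 27 of the 30 were below 0 in both pregnancies. None had an unadjusted p under 0.05. The smallest p-values were those of Uqcrc2, a core protein of complex III, Cox4i2, an isoform of a cytochrome oxidase subunit, and Ndufs1, the largest subunit of complex I, with log2 fold changes of -0.11, -0.16 and -0.09. The genes were measured in the same samples and are not independent observations. The fatty acid list had a median of 0.028, with 18 of 26 above 0 and 0 with an unadjusted p under 0.05. Cd36, the fatty acid transporter, was at 2231 ± 205 CPM (SD, n = 6) in Hif1a+/- and 2301 ± 194 CPM (SD, n = 6) in Wt, and the exact permutation p was 0.56. Ppargc1a, a coactivator of mitochondrial genes, was between 89.9 and 178 CPM in Hif1a+/- and between 93.3 and 306 CPM in Wt, with the highest value of each genotype in a diabetic animal, 66 and 7. Cpt2 and Acot2 had log2 fold changes of 0.11 and 0.17, and Acot2 lies 10.09 Mb from Hif1a. In the contraction and calcium list the median was -0.023 over 22 genes, with Myh7, the slow myosin heavy chain, at 0.17, Tnnt2 at -0.12 and the exchanger Slc8a1 at -0.25. None of these lists had a gene that edgeR, with or without the filter, DESeq2 or limma-voom called.

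In several lists the value over both pregnancies was a mean of unlike parts. Inflammation and complement genes had a median log2 fold change of 0.13 in the additive fit, but -0.24 in non-diabetic and 0.49 in diabetic pregnancy, with 26 of 29 genes below 0 in the first and 4 of 29 in the second. The circadian list had 0.15 and -0.24 in the same order with an additive median of -0.066, and the immediate early genes 0.025 and -0.31 with an additive median of -0.16. Extracellular matrix and TGF-beta genes had 0.017 and 0.26, with an additive median of 0.11 and 27 of 33 genes above 0. In that list 7 of 33 genes (21.2%) had an unadjusted p under 0.05, all higher, beside 2.74% of all genes. None of the 33 was called by DESeq2, limma-voom or edgeR with the filter, while edgeR without it called Fbn1 (log2 fold change 0.554, adjusted p = 0.0181). In all 14 lists edgeR called 0 genes with the filter and 7 without it, and Hif1a was the only member that DESeq2 called. Without animal 72 the additive medians were 0.16 for inflammation, 0.058 for matrix, 0.019 for the circadian list, where the sign turned, -0.096 for the immediate early genes, -0.11 for glycolysis and -0.069 for the respiratory chain. The macrophage and monocyte markers summed to between 574 and 861 CPM in diabetic Hif1a+/- and between 288 and 652 CPM in the other 9 samples, and none of the 13 was at 0 throughout. Fibroblast markers, several of which such as Col1a1 and Col3a1 are also in the matrix list, summed to between 3560 and 4850 CPM in diabetic Hif1a+/- and between 3030 and 4970 CPM in the other samples. Without animal 72 the macrophage sums of diabetic Hif1a+/- were 712 and 861 CPM, above all other samples. The 13 macrophage markers had a median log2 fold change of -0.19 in non-diabetic pregnancy, with 11 below 0, and of 0.49 in diabetic pregnancy, with 0 below 0. The 10 fibroblast markers had -0.028 and 0.33, and 3 of the 10 had an unadjusted p under 0.05 over both pregnancies, all higher. The summed levels overlapped between diabetic Hif1a+/- and the other samples, and the part of these cells in the inflammation and matrix values was not tested. In these tissue samples more cells of a type and more RNA per cell cannot be told apart. By immunostaining, a different measure, the study reported significantly more macrophages only in Wt from diabetic pregnancy, and not in Hif1a+/-.

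Single genes of the matrix, reactive oxygen species and inflammation lists are given here with the value in each pregnancy. Fbn1, the microfibril protein fibrillin, was at 87.9, 89.1 and 88.8 CPM in Hif1a+/- and 74.0, 87.4 and 98.6 CPM in Wt after non-diabetic pregnancy. After diabetic pregnancy it was at 118, 107 and 145 CPM in Hif1a+/- and 47.2, 73.5 and 56.3 CPM in Wt. Fbn1 thus had a log2 fold change of 0.03 in the first and 1.06 in the second, and the additive value of 0.55 with a standard error of 0.17 described neither. The unadjusted interaction p of Fbn1 was 0.000367. For the interaction DESeq2 called Fbn1 (adjusted p = 0.0522) and Duox1 (adjusted p = 0.0853), with Ivns1abp and Txnip, whereas edgeR with the filter and limma-voom called none. Timp1, an inhibitor of matrix metalloproteinases, had log2 fold changes of -0.33 and 1.28, Mfap5, a microfibril glycoprotein, 0.03 and 0.81, and Duox1, an enzyme that makes hydrogen peroxide, -0.24 and 1.498. Its maturation factor Duoxa1 had 0.38 and 1.43, with an additive value of 0.96 and an unadjusted p of 0.00376, and its unadjusted interaction p was 0.0566. EdgeR without the filter called Duoxa1 for genotype (adjusted p = 0.0617). Without animal 72 the diabetic log2 fold changes of Fbn1, Timp1, Mfap5, Duox1 and Duoxa1 were 1.15, 1.45, 0.91, 1.63 and 1.71. The unadjusted interaction p of Timp1, Mfap5 and Duox1 in edgeR was 0.000459, 0.00834 and 0.000266. Lbp, C3ar1 and Tlr13, genes of innate immunity, had -0.14, -0.092 and -0.17 in non-diabetic and 0.92, 0.75 and 0.70 in diabetic pregnancy. Their interaction p-values in edgeR were 0.0163, 0.0269 and 0.0874 before adjustment. Lbp stood highest in Hif1a+/- animal 77, at 10.95 CPM beside at most 5.724 in the other Hif1a+/- samples. Loxl1, a crosslinking enzyme of elastic fibres, had 0.08 and 0.50. Tgfb1, a growth factor of matrix production, had -0.044 and -0.013, with -0.028 in the additive fit and a standard error of 0.077, and the exact permutation p was 0.705.

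Genes that respond quickly to stimuli had a wide spread within each genotype. Nr4a3, an immediate early nuclear receptor related to Nr4a1, was between 2.26 and 9.11 CPM in Hif1a+/- and between 2.63 and 33.5 CPM in Wt, a log2 fold change of -1.56 with a standard error of 0.50. Myc had 0.37 with a standard error of 0.17. Of the clock genes, Per2 and Per1 had -0.71 and -0.46 with standard errors of 0.40 and 0.30, and Per2 was 0.02 in non-diabetic and -1.41 in diabetic pregnancy. Nr1d1, a clock repressor, had 0.27. The chaperone genes Hspa1b, Dnajb1 and Hsp90aa1 had -1.33, -0.49 and -0.41, each under 2 standard errors from 0, and Hspa1b shares reads with its near-identical copy Hspa1a, so that its count is uncertain. Nfe2l2, the regulator of antioxidant genes, had -0.23, and Ccn1, a matricellular protein of the stress list, 0.40 with an unadjusted p of 0.0184. None of these was called by DESeq2, limma-voom or edgeR with the filter, while edgeR without it called Nr4a3 (adjusted p = 0.00352).

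**Figure D5:**
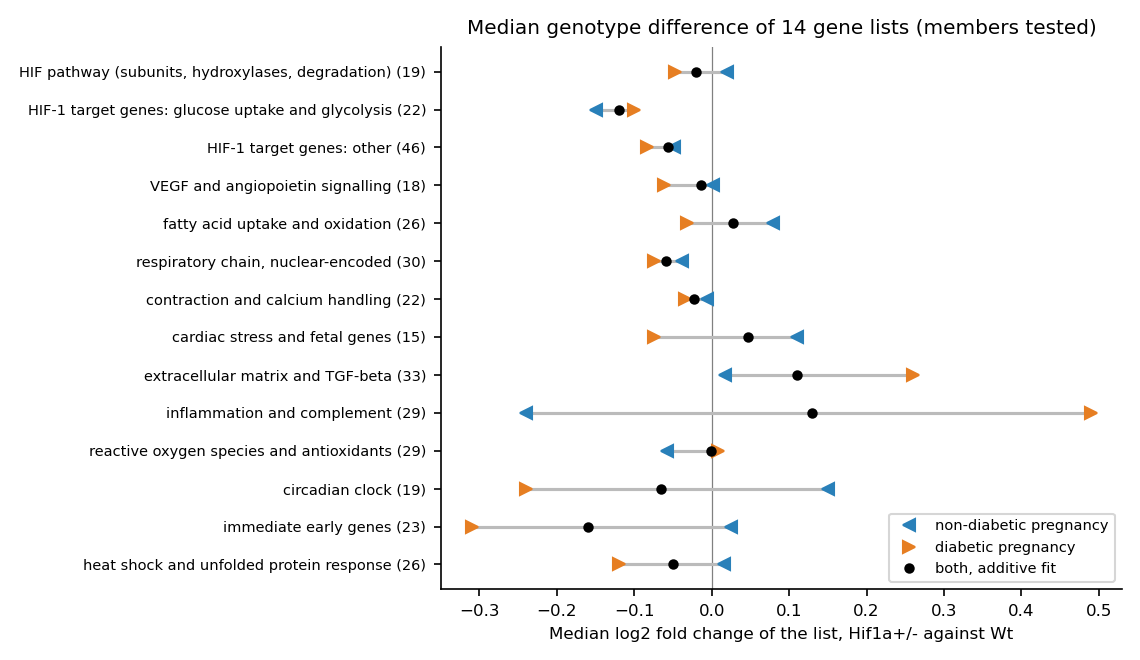
Median log2 fold change (Hif1a+/- against Wt) of 14 gene lists, with the number of members tested in brackets, in the additive fit (black points) and in each pregnancy (triangles). The glycolysis, respiratory chain, other HIF-1 target, contraction and matrix lists kept their sign in both pregnancies, whereas inflammation ran from -0.24 to 0.49.

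Summed markers of other cell types overlapped between the genotypes in all lists, but in some lists the members lay mostly to one side of 0. Red cell markers summed to between 185 and 734 CPM in Hif1a+/- and between 491 and 7345 CPM in Wt, none of the 7 at 0 throughout, and the highest value came from Wt animal 25. Of these markers, 5 were tested and all 5, among them the haemoglobin genes Hbb-bs and Hba-a1, had an unadjusted p under 0.05, lower in Hif1a+/-, beside 2.74% of all genes. EdgeR without the filter called all 5, with adjusted p between 0.0099 (Hba-a1) and 0.0309 (Hbb-bt). The number with an unadjusted p under 0.05 rested on single samples: it was 2 of 5 without any 1 of Wt animals 25 and 50 and Hif1a+/- animals 14, 32 and 44. Without Wt animal 25 the log2 fold change of Hbb-bs went from -1.81 to -0.70. Endothelial markers summed to between 2070 and 2280 CPM in Hif1a+/- and between 2060 and 2740 CPM in Wt, and none of the 11 was at 0 throughout. Of 7 Schwann cell and nerve markers tested, 6 were below 0 and 1 above, with a median log2 fold change of -0.29. An unadjusted p under 0.05 was found for 2 of them (28.6%), both lower, beside 2.74% of all genes. All 5 atrial and all 6 lymphatic endothelial markers tested were above 0, with medians of 0.2 and 0.14, and none had an unadjusted p under 0.05. The part of these cell types in the gene values above was not tested.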

How the data were processed

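RNA of the LV of 12 animals was measured by 3′-seq. The authors trimmed the reads with Trimmomatic, removed ribosomal and mitochondrial reads with SortMeRNA, aligned the rest to GRCm38 with STAR (version 2.5.2b per the labels) and assigned them to GENCODE genes by htseq-count in union mode. The deposited values used here are these raw counts, with totals of 16132442 to 39812939 per sample. Between 3.34% and 4.61% of reads in no gene and between 12.37% and 17.02% aligned to several places stood in tally lines, which were left out. The deposited tables of normalised values were not used.

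Genes with 10 or more counts in at least 3 of the 12 samples (14927 of 46983) were tested with edgeR 4.0.16 (R 4.3.3), using TMM scaling, the quasi-likelihood test, genotype with pregnancy as additive covariate, and Benjamini-Hochberg adjustment over all genes tested with a threshold of 0.1. Within-pregnancy values and the interaction came from a fit with 1 mean per group. DESeq2 1.42.0, limma-voom 3.58.1 with sample weights, other filters, scalings and models, and fits without each sample were alternatives. Symbols and positions came from GENCODE M21, and 46488 genes matched. The scripts were tested on simulated data. Exact permutation tests used log2(CPM + 1), with a pseudocount of 1, on 5 genes.

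The members and lists were chosen with earlier results of these data known. Genes were named by a rule: Hif1a, genes called, those of smallest p up to 20, the 10 of smallest p within 10 Mb of Hif1a, the 3 of smallest p in each list, and Ldha, Cd36, Vegfa and Tgfb1. Since edgeR called none, the genes that DESeq2 called are described first. Genes named outside this rule, such as further members of the lists, red cell markers and genes without overlap, were chosen after their values were seen.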

Additional observations from a re-analysis of the deposited data

Results flagged for a closer look

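In 12 of 164 groups of 6 samples of a genotype 1 sample stood apart by Dixon's gap criterion, which chance alone gives in about 1 of 20 groups, and no explanation was tested. Among genes, Six2 was 0.6125 CPM in Wt animal 7 beside at most 0.2856 in the other Wt samples, and Fam205c was 1.993 CPM in Wt animal 25 beside at most 1.293. Ndufs1 was 932.7 CPM in Wt animal 50 beside at most 833.7. In Hif1a+/- samples, Ppargc1a was 177.5 CPM in animal 66 beside at most 112.1, and Lbp was 10.95 CPM in animal 77 beside at most 5.724. The chaperone genes Dnajb1 and Hspa1b were both highest in Hif1a+/- animal 44, at 63.49 and 23.85 CPM beside at most 27.68 and 5.159.

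Summed markers stood apart in 4 groups. Atrial markers were 29.73 CPM in Wt animal 50, below the 55.3 to 62.43 of the other Wt samples. Wt animal 25 had 19.87 CPM of neutrophil markers beside at most 3.97, and 7345 CPM of red cell markers beside at most 1774. T and NK cell markers were 4.399 CPM in Hif1a+/- animal 72 beside at most 2.141. The total count of Hif1a+/- animal 66 was 39810000 beside at most 24550000 in the other Hif1a+/- samples.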

How the results depend on the processing

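The number of genes called depended on the tool and on the filter. For genotype over both pregnancies edgeR called 0 genes with the filter, DESeq2 6, limma-voom 3 and edgeR without a filter on low counts 30. These 30 held all 6 of DESeq2, 4 genes under the filter and 5 red cell markers, and without the filter the prior degrees of freedom were 45.9 over 27093 genes in place of 5.36. In non-diabetic pregnancy DESeq2 called 1 and edgeR without a filter 33, in diabetic pregnancy DESeq2 called 24, limma-voom 1 and edgeR without a filter 220, and for the interaction DESeq2 called 4 and edgeR without a filter 78. Within 10 Mb of Hif1a, Hif1a included, DESeq2 and edgeR without a filter each called 3 and limma-voom 2. Leaving out 1 sample at a time, the genotype effect gave 0 calls with edgeR and 5 to 10 with DESeq2 (10 without Hif1a+/- animal 44), and 0 and 1 to 3 within 10 Mb. In diabetic pregnancy it gave 0 to 2 with edgeR (2 without Wt animal 7 or Hif1a+/- animal 72, 1 without Hif1a+/- animal 66) and 5 to 330 with DESeq2 (5 without Wt animal 50, 330 without Wt animal 80). For the interaction edgeR gave 0 to 1 (1 without Wt animal 7).

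The log2 fold change of Hif1a was 0.4307 with DESeq2 (adjusted p = 0.0103), 0.4397 with edgeR without a filter (adjusted p = 0.00639) and 0.4854 with limma-voom (adjusted p = 0.0959), and 0.3953 to 0.4825 leaving out 1 sample with edgeR. Of 584 values of the other 65 named genes under 9 settings 0 turned direction and 21 newly passed the threshold, and of 780 values leaving out a sample 1 turned, that of Tgfb1, which was 0.01781 without Wt animal 7 and -0.07962 without Hif1a+/- animal 72. None of 196 recomputed medians of the 14 lists moved by over 1 SD of the list's mean level between samples, but 1 sample moved several: the respiratory chain median ran from -0.100 without Wt animal 7 to -0.0205 without Wt animal 89, inflammation from 0.00653 without Hif1a+/- animal 77 to 0.2315 without Wt animal 89, and immediate early genes from -0.240 without Hif1a+/- animal 44 to -0.0544 without Wt animal 7. The sign turned for fatty acid genes without Hif1a+/- animal 32 (-0.0159), the circadian list without Hif1a+/- animal 72 (0.0188) and cardiac stress genes without Wt animal 80 (-0.0823) or Hif1a+/- animal 66 (-0.0329), and for the VEGF and reactive oxygen species lists, which ran from -0.0581 to 0.00595 and from -0.0395 to 0.0362. Glycolysis ran from -0.144 to -0.0812, and matrix from 0.0576 without Hif1a+/- animal 72 to 0.139. The fit with adjusted degrees of freedom and the DESeq2 fits leaving out a sample were chosen after seeing the data. No paired analysis was possible, because the litter of each animal was not known and the animals carry numbers that no groups share. The paper took each group from several litters, and Wt and Hif1a+/- samples of a pregnancy may include littermates.

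Fmr1nb, Eps8l1 and Wdr89 rest on few counts and passed the filter through 1 genotype only, as 33 of all genes tested did. Apart from the counts named here, the cause of a change between settings was not tested. With 3 animals per group, small differences can be missed.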
